A study of Homo sapiens with 44 samples.

Results

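HOX genes encode homeodomain transcription factors that set the position of cells along the body axis. In human they lie in 4 clusters on 4 chromosomes, HOXA, HOXB, HOXC and HOXD, and genes of different clusters with the same number are paralogues. The genes described here are all those whose symbol is HOXA, HOXB, HOXC or HOXD followed only by digits. There are 39 of them, 11 HOXA, 10 HOXB, 9 HOXC and 9 HOXD genes, and all 39 were present both in the table of 58735 Ensembl genes and in the table of 27315 gene symbols deposited for this series. The choice used symbols only and no measured value.

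HOX clusters are the classical targets of the Polycomb system. Polycomb repressive complex 2 (PRC2), whose catalytic subunit is EZH2, places methyl groups on lysine 27 of histone H3, and Polycomb repressive complex 1 (PRC1) binds and compacts the marked chromatin, while Trithorax-type complexes keep HOX genes active. HOX proteins bind DNA together with cofactors of the TALE class, among them the PBX, MEIS and PKNOX proteins. RelA and RelB are subunits of NF-kB, RelA of the canonical and RelB of the non-canonical branch.

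The RNA libraries were from 2 established lines of triple-negative breast cancer, MDA-MB-231 and SUM149, the second derived from an inflammatory breast cancer. Cells received 20 nM siRNA and were collected after 48 h, with no other agent named in the labels. In the first experiment MDA-MB-231 cells received siRelA, siRelB or a control siRNA. In the second, MDA-MB-231 and SUM149 cells received siEZH2 or a control siRNA. Each of these 7 groups held 2 libraries, labelled as replicates, so that each p-value measures the spread between such pairs, and each line is 1 cell population. The targeted transcripts were low where the labels say so. EZH2 stood at 368 and 298 normalised counts in siEZH2 and at 3022 and 3020 in control MDA-MB-231 libraries, and at 442 and 517 in siEZH2 and at 2563 and 2746 in control SUM149 libraries. RELA stood at 10.8 and 12.8 CPM (counts scaled to a common library total) in siRelA libraries, against 148 and 146 CPM in the controls, and RELB at 4.84 and 5.42 CPM in siRelB libraries, against 38.4 and 39.5 CPM. RELB was low in siRelA libraries too, at 15.4 and 13.7 CPM, so these libraries lack both transcripts in part. Of the receptor genes that define the triple-negative state, PGR was at 0 reads in all 8 libraries of the second experiment and at 2 to 20 counts in the first, ESR1 had at most 3 reads in the second and 0 to 7 counts in the first, and ERBB2 had 348 to 533 normalised counts in SUM149 and 1613 to 2363 in MDA-MB-231.

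The first table holds raw counts, 18.6 to 24.4 M per library. The second holds values after a variance-stabilising transformation, close to log2, with a lowest value of 7.12. Inverting that transformation gave normalised counts, and low values then fell on whole reads: 94.0 to 95.5% of the values that round to between 1 and 4 reads came within 0.2 of a whole number, against 40.0% for evenly spread values. The recovered totals were 17.3 to 38.1 M reads per library. A gene at the lowest value is thus a gene with 0 reads, and this allows up to 3 reads in that library, for counting error only. Normalised counts and CPM are scaled differently and are not compared with each other below. In all these cultures fewer cells that express a gene and less RNA per cell cannot be told apart.

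HOX promoters are rich in CpG dinucleotides, the usual sequence setting of Polycomb targets. The RefSeq promoter table (GRCh38.p14), which covers 250 bases before to 50 bases after a start site, had windows for 20 of the 39 genes, 26 different windows in all. These held a median of 22.5 CG dinucleotides, with a range of 0 to 44, against a median of 14 over all 34943 windows of that length in the table. At least 15 CG stood in 73.1% of the HOX windows and in 48.8% of all windows. The NF-kB consensus, searched by name on both strands, was found in 2 HOX windows (7.69%, against 11.3% of all windows), those of HOXA2 and of the start site shared by HOXC4 and HOXC5. Shown here are HOXA10, which was higher after siEZH2 in SUM149, HOXD1, which was lower after siEZH2 in MDA-MB-231, and HOXD4, a member with reads in MDA-MB-231 whose window holds only 4 CG. Capitals mark CG.
HOXA10 start site 1, chr7:27174271-27174570, minus strand: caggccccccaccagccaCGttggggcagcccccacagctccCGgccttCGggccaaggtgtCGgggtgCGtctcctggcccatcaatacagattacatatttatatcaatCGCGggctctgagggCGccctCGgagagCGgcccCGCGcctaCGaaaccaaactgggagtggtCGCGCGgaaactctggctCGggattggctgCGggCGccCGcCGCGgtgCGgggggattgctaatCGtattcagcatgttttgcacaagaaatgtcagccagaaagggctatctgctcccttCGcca
HOXA10 start site 2, chr7:27179812-27180111, minus strand: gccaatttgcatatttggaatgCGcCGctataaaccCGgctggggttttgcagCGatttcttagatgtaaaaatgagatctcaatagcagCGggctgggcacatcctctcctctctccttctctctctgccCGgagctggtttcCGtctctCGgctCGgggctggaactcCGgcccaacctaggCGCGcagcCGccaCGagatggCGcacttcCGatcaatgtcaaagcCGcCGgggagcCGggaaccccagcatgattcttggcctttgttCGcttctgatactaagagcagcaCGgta
HOXD1, chr2:176188418-176188717, plus strand: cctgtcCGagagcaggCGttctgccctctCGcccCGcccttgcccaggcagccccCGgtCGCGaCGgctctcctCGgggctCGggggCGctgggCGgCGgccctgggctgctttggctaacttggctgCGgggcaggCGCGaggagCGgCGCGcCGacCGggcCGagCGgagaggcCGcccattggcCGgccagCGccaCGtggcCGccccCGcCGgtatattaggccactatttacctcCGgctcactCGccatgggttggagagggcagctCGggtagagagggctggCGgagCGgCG
HOXD4, chr2:176151300-176151599, plus strand: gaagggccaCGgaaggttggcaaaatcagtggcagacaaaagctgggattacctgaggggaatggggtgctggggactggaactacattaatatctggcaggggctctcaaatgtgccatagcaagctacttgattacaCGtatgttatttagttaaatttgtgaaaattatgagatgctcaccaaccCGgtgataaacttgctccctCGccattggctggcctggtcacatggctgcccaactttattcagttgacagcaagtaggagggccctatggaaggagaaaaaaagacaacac
The HOXA10 windows hold 25 and 21 CG and the HOXD1 window 36. None of these 4 windows held the NF-kB consensus. HOXB9, HOXC8 and HOXC11 were among the genes without a window, so that the consensus was not searched there.

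Many HOX genes were silent, and which ones depended on the line. Among the 39 genes of the second experiment, 4 were at the lowest value in all 8 libraries: HOXA4, HOXB1, HOXB2 and HOXB13. That is 10.3% of the HOX genes, against 30.1% of all symbols, 8226 of 27315. In single libraries 15 to 17 HOX genes were at the lowest value in SUM149 and 20 to 25 in MDA-MB-231. In both control libraries of SUM149 14 HOX genes were silent (35.9%, against 39.9% of all symbols), and in both of MDA-MB-231 23 were (59.0%, against 37.2%). Counting values within 0.1 of the lowest gave the same numbers.

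The 2 lines used different clusters. In SUM149 control libraries HOXC genes summed to 1548 ± 38.1 and HOXA genes to 1003 ± 8.46 normalised counts, HOXD genes to 51.6 ± 19.0 and HOXB genes to 10.8 ± 3.77 (SD, n = 2). In MDA-MB-231 control libraries the order was nearly the reverse: HOXB genes summed to 370 ± 21.7, HOXD genes to 190 ± 6.46, HOXC genes to 26.0 ± 9.68 and HOXA genes to 9.93 ± 2.05 normalised counts. The HOXA and HOXC clusters together thus made up 38.4% and 59.2% of the HOX sum in SUM149, and HOXB and HOXD 62.2% and 31.8% in MDA-MB-231.

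**Figure D1:**
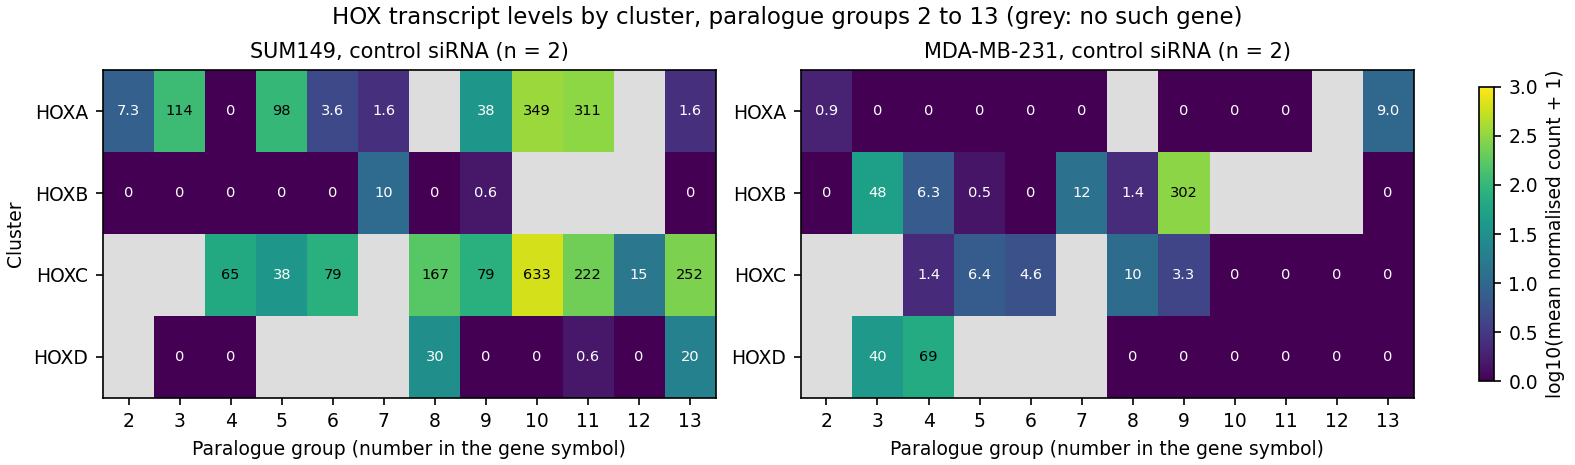
Mean normalised count of the HOX genes of paralogue groups 2 to 13 in control siRNA libraries of SUM149 (left, n = 2) and MDA-MB-231 (right, n = 2), with the 4 clusters as rows and the number in the gene symbol as columns; colour is log10(mean + 1), and grey cells have no gene. SUM149 has reads in every gene of the HOXC row, up to 633 for HOXC10, and in the HOXA row except HOXA4. HOXA7 and HOXA13 have a mean of 1.64 there. MDA-MB-231 has HOXD3, HOXD4 and several genes from HOXB3 to HOXB9, up to 302 for HOXB9.

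Of the 39 genes, 11 were above the lowest value in all 4 SUM149 libraries and at it in all 4 MDA-MB-231 libraries, among them HOXA3, HOXA6, HOXA9, HOXA10, HOXC10, HOXC11, HOXC12, HOXC13, HOXD8 and HOXD13. The opposite pattern held for 4 genes, HOXB3, HOXB4, HOXD3 and HOXD4. Reads were found in all 8 libraries for 6 genes, HOXB7, HOXC4, HOXC5, HOXC6, HOXC8 and HOXC9. In SUM149 all 9 HOXC genes were above the lowest value in all 4 libraries, as were 8 of 11 HOXA genes, but 1 of 10 HOXB and 2 of 9 HOXD genes.

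In SUM149 controls the highest member was HOXC10, a gene of hindlimb and lumbar motor neuron patterning in mouse, with 614 and 652 normalised counts, against 0 in both MDA-MB-231 controls. With 3 reads allowed over the MDA-MB-231 group it was at least 471-fold higher in SUM149. HOXA10, which is needed for uterine development and receptivity in mouse, had 341 and 358 normalised counts in SUM149 controls and 0 in MDA-MB-231 controls, at least 260-fold higher in SUM149. HOXA11, a gene of forearm and kidney development in mouse, had 332 and 289 in SUM149 controls and 0 in MDA-MB-231 controls, a difference of at least 232-fold. HOXC13, which acts in hair and nail formation, had 252 and 252, and HOXC11 had 205 and 240 normalised counts in SUM149 controls, at least 188-fold and 166-fold higher than in MDA-MB-231, where both had 0. These were the highest HOX genes of the SUM149 controls, and the MDA-MB-231 controls had no read of any of them.

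Per kilobase of exon, the order in SUM149 controls was HOXC10 (267 normalised counts per kilobase), HOXA11 (116), HOXC13 (107), HOXA10 (94.2), HOXC8 (68.9) and HOXC11 (68.1). In MDA-MB-231 controls it was HOXB9 (117), HOXD4 (60.5), HOXD1 (42.7), HOXD3 (10.9) and HOXB7 (7.97). HOXA11 and HOXC13, and HOXC8 and HOXC11, are neighbours in the SUM149 order whose mean levels differ by less than the SD of HOXA11 and of HOXC8 between the libraries. Exon lengths are from GENCODE v44.

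MDA-MB-231 had its own set. HOXB9, which in mouse acts with its paralogues in mammary gland development, had 0 and 1.13 normalised counts in SUM149 controls, against 287 and 317 in MDA-MB-231 controls. HOXD1 had 0 and 1.12 in SUM149 and 81.5 and 79.7 in MDA-MB-231 controls. HOXD4, a gene of hindbrain and neck patterning in mouse, had 0 reads in SUM149 controls, against 65.5 and 72.0 normalised counts in MDA-MB-231 controls, at least 34.4-fold lower in SUM149. HOXB3 and HOXD3, of the same paralogue group, were at 0 in SUM149 controls too, against 46.3 and 50.1 for HOXB3 and 37.9 and 42.4 for HOXD3 in MDA-MB-231 controls. HOXA13, the last gene of its cluster, known for hand and foot malformations when mutated, had 3.27 and 0 in SUM149 and 9.48 and 8.48 in MDA-MB-231 controls. It was the one HOXA gene with reads in all MDA-MB-231 libraries.

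Of the genes shared by the lines, HOXC8, which shapes the thoracic skeleton in mouse, had 173 and 160 normalised counts in SUM149 controls and 11.4 and 9.33 in MDA-MB-231 controls, a 16.1-fold ratio of means. HOXC6 (17.2-fold), HOXC9 (24.1-fold) and HOXC5 (5.83-fold) were higher in SUM149 too. HOXB7 was near equal, with 8.17 and 12.4 in SUM149 against 12.3 and 11.9 in MDA-MB-231 controls. A limma fit to the variance-stabilised values of all 8 libraries tested the 12356 symbols that exceeded the floor of the scale by 1 or more in a minimum of 2 libraries, and 13 HOX genes passed that filter. Between the control groups it called 11 of the 13 higher and 2 lower in SUM149 at a Benjamini-Hochberg adjusted p under 0.05, against 41.3% and 41.5% of all symbols tested, 82.8% in all. The 13 passed because 1 line expresses them, so that their count is a description and no support for a difference between the lines.

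EZH2 knockdown in MDA-MB-231 lowered 2 of the genes this line uses and left most silent HOX genes without reads. HOXB9 had 167 and 160 normalised counts in siEZH2 libraries, against 287 and 317 in control libraries. The mean was 1.85-fold lower, and the log2 change on the variance-stabilised scale was -0.47 ± 0.06 (SE, limma, adjusted p = 2.81e-05). HOXD1 had 47.3 and 38.2 normalised counts in siEZH2 libraries and 81.5 and 79.7 in control libraries. It was 1.89-fold lower, with a log2 change of -0.28 ± 0.06 (limma, adjusted p = 0.00122). HOXD1 reached the limma filter through the control libraries alone, where it is high, so that this p is conditional on the filter. It reached the lower filter of the edgeR test described next through the siEZH2 libraries as well. For both genes each siEZH2 library lay below each control library, as for HOXC8, HOXD3 and HOXD4, which no test called. Without either control library HOXD1 was left out by the filter on low values and had no test. HOXB9 and HOXD1 were the HOX genes called of 13 tested (15.4%), both lower, against 27.1% of all tested symbols called lower and 29.4% called higher. The other 11 had reached the filter through SUM149, where they are high, and had few or no reads in MDA-MB-231, so that nothing can be read from this share. No HOX gene was called higher by limma, and none had an unadjusted p under 0.05 in that direction. Of the 13, 6 had 0 reads in all 4 MDA-MB-231 libraries.

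On the variance-stabilised scale a change of a gene with few reads is compressed, and HOXD3, HOXD4, HOXB3, HOXB4 and HOXA13 did not reach the limma filter. An edgeR quasi-likelihood test on the recovered reads, with 26 HOX genes among 14658 symbols, gave log2 changes of -0.90 ± 0.15 for HOXB9 (adjusted p = 4.96e-05) and -0.94 ± 0.23 for HOXD1 (adjusted p = 0.00219). It also called HOXA13 higher, with 27 and 19.1 normalised counts in siEZH2 against 9.48 and 8.48 in control libraries (log2 change 1.31 ± 0.43, adjusted p = 0.0169). HOXA13 reached the filter of this test through the siEZH2 libraries alone, and that p is conditional on it. In this test 24.9% of all symbols were called lower and 25.8% higher. HOXD3 had 27 and 25.4 in siEZH2 and 37.9 and 42.4 normalised counts in control libraries (log2 change -0.63 ± 0.28, adjusted p = 0.0699). The groups do not overlap, but the difference did not pass.

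Other MDA-MB-231 members were called by neither test. HOXD4 had 58.8 and 61.5 normalised counts in siEZH2 and 65.5 and 72.0 in control libraries (edgeR log2 change -0.21 ± 0.22, adjusted p = 0.462). HOXB3 had 61.3 and 50.2 in siEZH2 against 46.3 and 50.1 in control libraries. HOXB4, which supports blood stem cell growth when overexpressed in mouse, had 11.6 and 11.3 in siEZH2 against 6.63 and 5.93 in control libraries (edgeR log2 change 0.84 ± 0.50, adjusted p = 0.173). HOXB7 had 11.6 and 14.8 in siEZH2 and 12.3 and 11.9 in control libraries. HOXC8, HOXC6, HOXC5 and HOXC9 had at most 11.4 normalised counts in any MDA-MB-231 library.

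**Figure D2:**
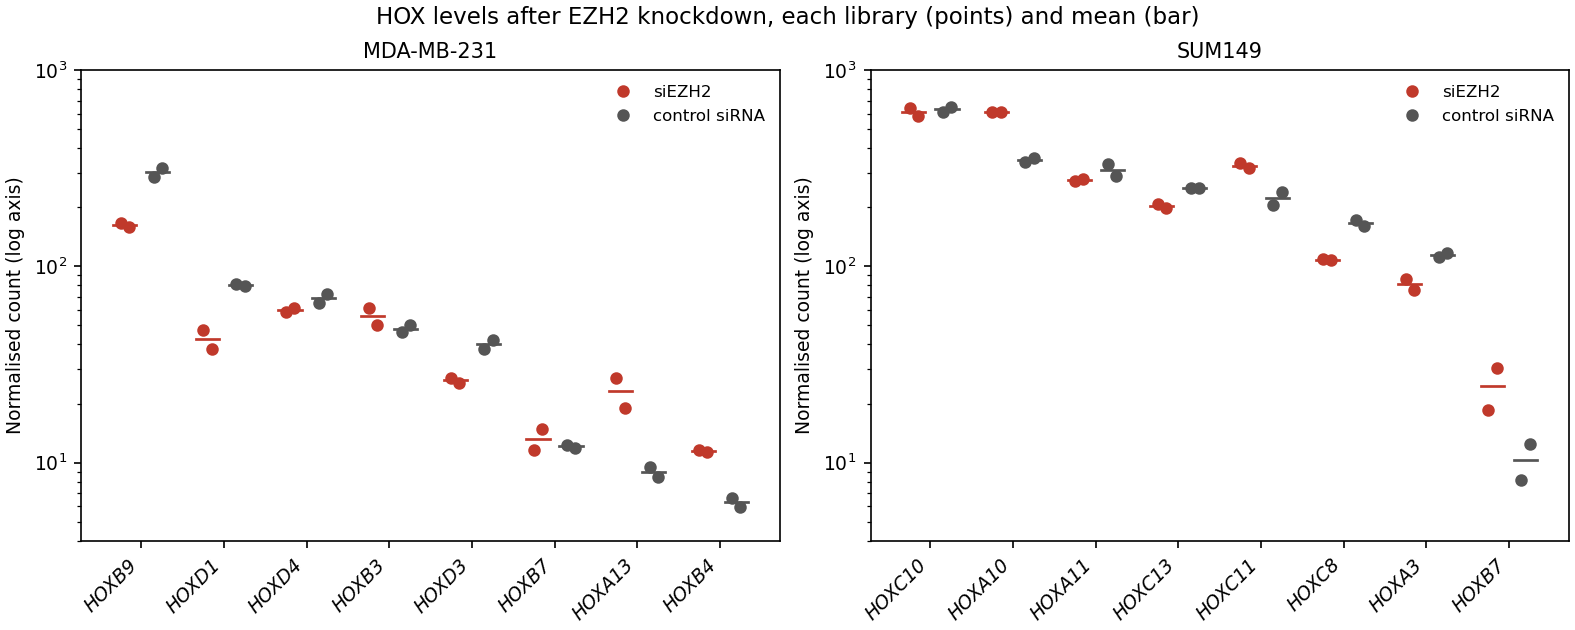
Normalised counts (log axis) of 8 HOX genes in MDA-MB-231 (left) and 8 in SUM149 (right), siEZH2 libraries in red left of control siRNA libraries in grey; points are single libraries and bars their mean (n = 2). In MDA-MB-231 HOXB9 and HOXD1 lie lower in both siEZH2 libraries; in SUM149 HOXA10 and HOXC11 lie higher, and HOXC8, HOXA3 and HOXC13 lower.

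In SUM149 EZH2 knockdown moved members of the active HOXA and HOXC clusters both ways. HOXA10 had 610 and 615 normalised counts in siEZH2 libraries, against 341 and 358 in control libraries, a mean 1.75-fold higher (log2 change 0.55 ± 0.06, limma, adjusted p = 3.37e-06). HOXC11 had 335 and 316 in siEZH2 libraries and 205 and 240 in control libraries, 1.46-fold higher (log2 change 0.32 ± 0.06, limma, adjusted p = 0.000612). HOXC8 had 109 and 107 normalised counts in siEZH2 libraries, against 173 and 160 in control libraries, 1.54-fold lower (log2 change -0.28 ± 0.06, limma, adjusted p = 0.000975). For these 3 genes the libraries of the groups do not overlap. That holds for HOXA11, HOXC4 and HOXC6 too, which no test called, so it does not set the 3 apart. The edgeR test on recovered reads called HOXA10, HOXC11 and HOXC8 in the same direction, at 0.83 ± 0.12, 0.56 ± 0.15 and -0.60 ± 0.18.

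HOXA3, which is needed for the thymus and parathyroid glands in mouse, had 86.3 and 75.8 normalised counts in siEZH2 libraries, against 111 and 117 in control libraries (log2 change -0.19 ± 0.05, limma, adjusted p = 0.0089). HOXC13 had 209 and 197 in siEZH2 libraries and 252 in both control libraries (log2 change -0.17 ± 0.06, limma, adjusted p = 0.0188). Both calls were lost in the edgeR test on recovered reads (adjusted p = 0.0683 and 0.134) and without the second siEZH2 library (limma, adjusted p = 0.0665 and 0.0889). HOXC13 also missed the threshold when only the SUM149 libraries were fitted (adjusted p = 0.0532). In all, limma called 2 of 13 HOX genes higher and 3 lower in SUM149, against 29.4% and 28.6% of all symbols tested. The count includes HOXB9 and HOXD1, which had at most 1 read in any SUM149 library.

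Other SUM149 members were not called by limma, among them HOXA9 and HOXB7, which did not reach its filter. HOXC10 had 639 and 583 normalised counts in siEZH2 and 614 and 652 in control libraries (log2 change -0.04 ± 0.06, limma, adjusted p = 0.629), and its groups overlap. HOXA11 had 272 and 280 in siEZH2 against 332 and 289 in control libraries (log2 change -0.10 ± 0.06, limma, adjusted p = 0.203). HOXA9, which is expressed in blood progenitors and in leukaemia, had 27.4 and 36.5 in siEZH2 and 32.7 and 42.8 in control libraries. HOXA5, HOXC6 and HOXC9 had limma log2 changes between -0.04 and 0.07, each with an adjusted p above 0.4. HOXB7 had 18.6 and 30.4 normalised counts in siEZH2 against 8.17 and 12.4 in control libraries, and edgeR on recovered reads called it higher (log2 change 1.21 ± 0.43, adjusted p = 0.0264), against 27.2% of symbols called higher and 22.5% lower in that test, 49.7% in all.

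Levels were also summed over each cluster. In SUM149, HOXA genes summed to 1201 ± 20.3 normalised counts in siEZH2 libraries against 1003 ± 8.46 in controls, with HOXA10 as the member that differs most in count, and HOXC genes to 1524 ± 48.6 against 1548 ± 38.1 (SD, n = 2). In MDA-MB-231, HOXB genes summed to 246 ± 10.6 in siEZH2 libraries against 370 ± 21.7 in controls, and HOXD genes to 131 ± 5.01 against 190 ± 6.46. No test was run on these sums.

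Genes that were silent in the controls stayed at or near 0 reads. In MDA-MB-231, 23 HOX genes had 0 reads in both control libraries, and 5 of these had at least 1 read in a siEZH2 library: HOXA5, HOXA11, HOXB6, HOXD11 and HOXD12. That is 21.7%, against 8.11% of all 10174 symbols at 0 reads in both controls. HOXD11 and HOXD12, neighbouring genes of the HOXD cluster, had reads in both siEZH2 libraries, 8.70% of the 23 against 1.63% of all. The highest value among the 23 was 2 reads, which lies within the 3 reads that a count of 0 allows. The second siEZH2 library was also the deepest, with 38.1 M recovered reads, and the part of depth in these single reads was not tested. In SUM149, 14 HOX genes had 0 reads in both controls, and 2 of them, HOXD9 and HOXD10, had 1 read in a siEZH2 library (14.3%, against 9.17% of all). No HOX gene silent in the controls had above 2 reads in a siEZH2 library of MDA-MB-231, or above 1 in SUM149. An increase within the 3 reads allowed was not detectable at this depth.

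The genes called in one line could not be compared in the other. HOXA10 and HOXC11 had 0 reads in all 4 MDA-MB-231 libraries, and HOXB9 had 1 read in 1 of the 4 SUM149 libraries. The limma test of the difference, SUM149 minus MDA-MB-231, gave 0.55 for HOXA10, 0.41 for HOXB9 and 0.32 for HOXC11, which restate the change in the line that has reads, and its calls for these genes (11.2% of all symbols were called higher and 10.4% lower) measure no difference in response. Among the 6 genes with reads in all 8 libraries, edgeR on recovered reads called none for this difference, against 9.01% of symbols higher and 4.89% lower, and none had an unadjusted p under 0.05. HOXC8 differed by 0.06 ± 0.42 (SE, edgeR, adjusted p = 0.974) and HOXB7 by 1.07 ± 0.61 (edgeR, adjusted p = 0.275) on the log2 scale. With errors of this size a difference was not detectable for these genes at this depth.

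RelA knockdown in MDA-MB-231 lowered HOXB9 and no other HOX gene that could be tested. HOXB9 had 137 and 117 counts in siRelA libraries, 201 and 179 in siRelB libraries and 275 and 216 in control libraries, which is 5.61 and 5.45 CPM, 10.8 and 9.07 CPM, and 11.4 and 9.31 CPM. Each siRelA library lay below each of the others, while the siRelB and control libraries overlap. The log2 change after siRelA was -0.98 ± 0.20 (SE, edgeR, adjusted p = 0.0026), and that between siRelA and siRelB was -0.86 ± 0.20 (edgeR, adjusted p = 0.00455). Without the first control library the change after siRelA was -0.82 and missed the threshold (adjusted p = 0.0515). After siRelB it was -0.12 ± 0.20 (edgeR, adjusted p = 0.731). The edgeR fit of all 6 libraries tested 15930 genes, 9 of them HOX genes, and 10.2% of all genes were called lower and 8.82% higher after siRelA, against 1 of 9 HOX genes lower and none higher.

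HOXB9 was thus lower after siRelA in the first experiment and after siEZH2 in the second, in separate libraries with their own controls. Of all genes 10.2% were called lower after siRelA by edgeR, and of all symbols 27.1% after siEZH2 in MDA-MB-231 by limma. The share lower in both was not counted, so that nothing can be read from HOXB9 being among them. EZH2 itself stood at 109 and 119 CPM in siRelA libraries, against 108 and 104 CPM in control libraries, a log2 change that edgeR did not call. In the siEZH2 libraries of MDA-MB-231 RELA had 2170 and 2008 normalised counts, against 2192 and 2252 in control libraries, and RELB had 184 and 206 against 632 and 589. Whether one change bears on the other was not tested.

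After siRelB none of the 9 HOX genes was called by edgeR, by DESeq2 or in any alternative run, and none had an unadjusted p under 0.05, against 10.8% of all genes called lower and 7.45% higher. The gene closest to a call was HOXA13, with 12 and 8 counts in siRelB libraries against 26 and 28 in control libraries (log2 change -1.17 ± 0.63, edgeR, adjusted p = 0.219). In siRelA libraries it had 29 and 32 counts. Between siRelA and siRelB its log2 change was 1.33 ± 0.63 (edgeR, adjusted p = 0.125, unadjusted p = 0.0498), and in that comparison 1 of 9 HOX genes was called, HOXB9, against 14% of genes lower and 16% higher, 29.9% in all.

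**Figure D3:**
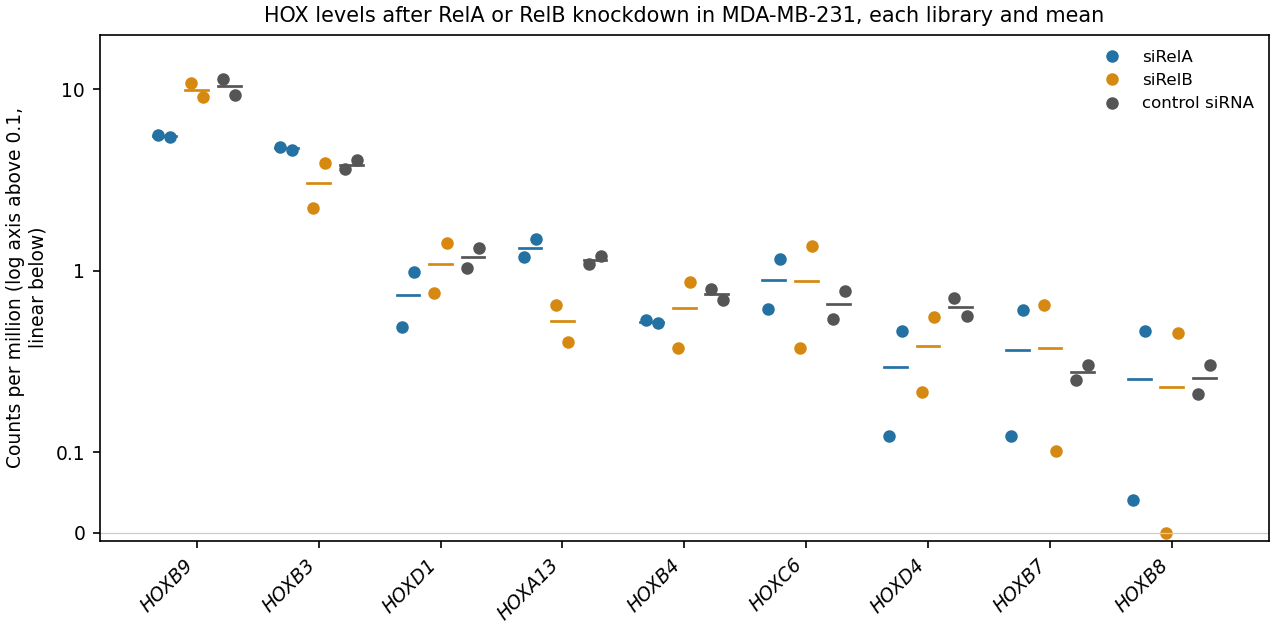
CPM of the 9 HOX genes tested in the first experiment, with siRelA in blue, siRelB in orange and control siRNA in grey from left to right; points are single libraries of MDA-MB-231 and bars their mean (n = 2), on a log axis above 0.1 and a linear one below. HOXB9 at 5.61 and 5.45 CPM after siRelA is the only gene whose groups differ past the threshold.

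The other tested members of the first experiment had few counts and wide errors. HOXB3 had 117 and 100 counts in siRelA, 41 and 77 in siRelB and 87 and 94 in control libraries. HOXD1 had 12 and 21 counts in siRelA, 14 and 28 in siRelB and 25 and 31 in control libraries (log2 change after siRelA -0.77 ± 0.64, edgeR, adjusted p = 0.466). HOXD4 had 3 and 10, 4 and 11, and 17 and 13 counts in the same order of groups. HOXC6 had 15 and 25 counts in siRelA, 7 and 27 in siRelB and 13 and 18 in control libraries. HOXC8, the second of the HOXC genes by level there, was not tested, with 3 to 11 counts in the 6 libraries. In total 18 of the 39 genes had a count in any of the 6 libraries and 21 had none, and 24 were at 0 in both controls. Of these 24, 2 had a count in a siRelA library (HOXA10 and HOXB2, 8.33% against 7.15% of all genes at 0 in both controls) and 2 in a siRelB library (HOXB2 and HOXD12, 8.33% against 4.97%), none in both libraries of a group.

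The control libraries of MDA-MB-231 from both experiments showed nearly the same set of active HOX genes. In both, 14 genes were above 0 and 22 at 0. HOXB6 had counts in the controls of the first experiment, 3 in each, and no read in the controls of the second. HOXD3 was at 0 counts in all 6 libraries of the first experiment but had 37.9 and 42.4 normalised counts in the controls of the second. The tables were made with different aligners, counters and, as far as stated, annotations, and which of these underlies the difference was not tested. HOXA2 had 2 reads in 1 control library of the second experiment and none in the first.

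**Figure D4:**
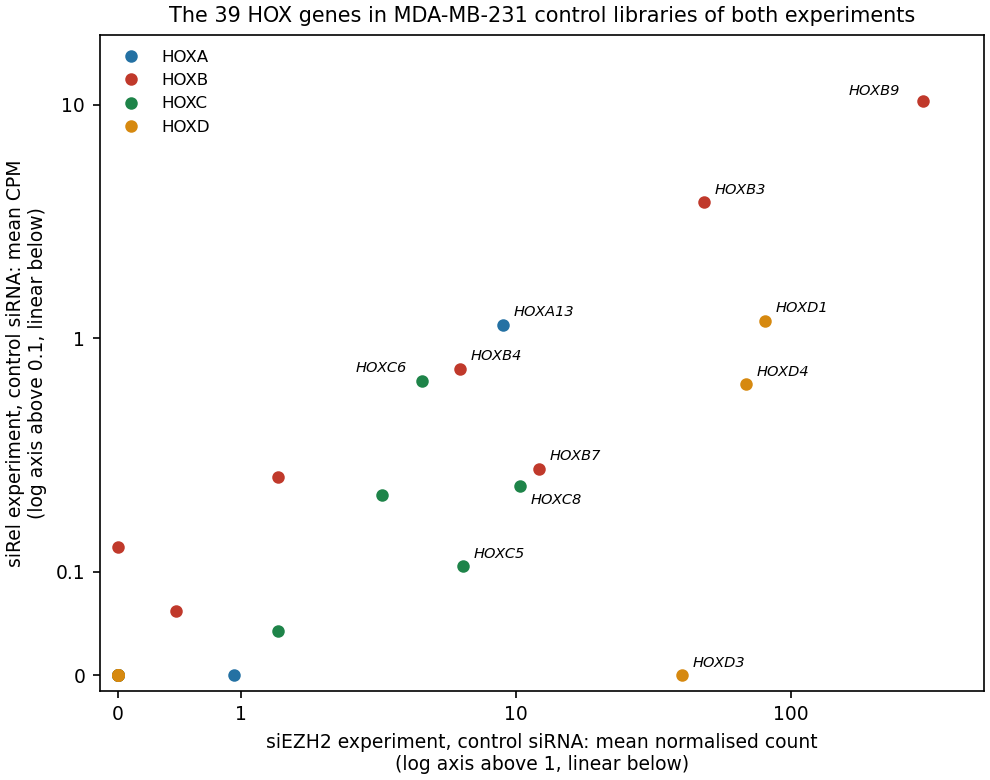
Mean CPM of the 39 HOX genes in siRel control libraries (vertical) against their mean normalised count in siEZ control libraries (horizontal), both of MDA-MB-231 (n = 2 each), on log axes that are linear near 0; colours mark the clusters. HOXB9 is highest in both, HOXD3 lies at 0 CPM and 40.1 normalised counts, and 22 genes lie at 0 in both.

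Overlap with other transcripts bears on some of these values. HOXD1 shares 60.1% of its exonic bases with genes on the opposite strand. The largest part is shared with ENSG00000279160 and a smaller part with HAGLR, a noncoding RNA. Since the strand setting is not given in the sources used here, reads of HOXD1 and of these genes cannot be told apart there. HAGLR itself had 292 and 200 normalised counts in siEZH2 and 322 and 326 in control libraries of MDA-MB-231 (log2 change -0.24 ± 0.09, limma, adjusted p = 0.0297). After siRelB it had 299 and 302 counts, against 491 and 522 in controls (log2 change -0.51 ± 0.14, edgeR, adjusted p = 0.021), a call lost when any 1 of these 4 libraries was left out. HOXA10 shares 26.3% of its exonic bases, in part with HOXA10-AS, which had 3.91 and 3.04 normalised counts in siEZH2 and 9.81 and 4.51 in control libraries of SUM149. On its own strand HOXC5 shares 67.3% of its exonic bases with other genes. HOXC4 shares 17.5% and HOXC6 16.1% in this way, HOXC4 and HOXC6 in part with each other. The part of this overlap in their levels was not tested. HOXB9, HOXC8, HOXC11 and HOXD4 share none.

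Among the other noncoding genes of the clusters some had reads in 1 line only. HOTAIR, a HOXC transcript reported to bind PRC2, had 39.2 and 49.6 normalised counts in siEZH2 and 62.2 and 50.7 in control libraries of SUM149, and 0 in all MDA-MB-231 libraries. HOTAIRM1, a HOXA transcript, had 79.9 and 71.0 in siEZH2 and 85.1 and 61.6 in control libraries of SUM149 (log2 change 0.02 ± 0.06, limma, adjusted p = 0.835), and 0 in MDA-MB-231. HOTTIP, beside HOXA13, had 8.68 and 5.65 in siEZH2 against 3.79 and 6.79 in control libraries of MDA-MB-231, although other HOXA genes are near silent there, and 0.98 and 0 in siEZH2 against 0 and 2.25 in control libraries of SUM149. HOXA-AS3, HOXB-AS1, HOXB-AS3 and HOXD-AS2 had 0 reads in all 8 libraries. Of the 18 noncoding cluster genes 2 reached the limma filter and 1 the edgeR filter.

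Genes of the machinery that represses HOX genes were read from the same fits. Of 13 genes of PRC2 and its accessory factors, EZH2 among them, limma called 7 lower and 3 higher after siEZH2 in SUM149, and 8 lower and 2 higher in MDA-MB-231, against 28.6% of all symbols lower and 29.4% higher in SUM149 and 27.1% lower and 29.4% higher in MDA-MB-231. SUZ12 and EED, the core partners of EZH2, fell in both lines, SUZ12 by 0.32 in SUM149 and 0.36 in MDA-MB-231, and EED by 0.24 in SUM149 and 0.33 in MDA-MB-231 (log2 changes). JARID2, which helps recruit PRC2, rose by 0.49 in SUM149 and fell by 0.16 in MDA-MB-231, and the difference between the lines passed (0.65 ± 0.08). The median log2 change of the list was -0.18 in SUM149 and -0.21 in MDA-MB-231, against 0.00 over all symbols tested in both.

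Of 20 PRC1 genes 7 were called higher and 3 lower in SUM149, and 6 higher and 4 lower in MDA-MB-231. CBX2, a subunit that binds methylated lysine 27, fell by 0.35 in SUM149 and by 0.64 in MDA-MB-231. CBX6 fell by 0.40 in SUM149 and rose by 0.30 in MDA-MB-231 (difference -0.70 ± 0.07). Of 12 Trithorax-type genes and demethylases of lysine 27, 2 were called higher and 3 lower in SUM149, and 2 higher and 1 lower in MDA-MB-231. KMT2C, a lysine 4 methyltransferase, rose by 0.63 in SUM149 and 0.39 in MDA-MB-231, and KDM6B, a lysine 27 demethylase, fell by 0.53 in SUM149 and 0.35 in MDA-MB-231. These lists were named with earlier results of the data known, and 58% of all symbols were called in either direction in SUM149 and 56.6% in MDA-MB-231, a share below that of the PRC2 genes and above those of the PRC1 and Trithorax-type genes in both lines.

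Of the 8 tested TALE cofactors, 4 were called higher and 1 lower in SUM149, and 3 higher and 1 lower in MDA-MB-231, shares near the 58% and 56.6% of all symbols called in these lines. PBX2 fell by 0.86 in SUM149 and by 1.43 in MDA-MB-231, the largest change among the cofactors in both lines. PKNOX1 rose by 0.54 in SUM149 and 0.43 in MDA-MB-231. MEIS2 rose by 0.26 in SUM149. Of the upstream regulators tested, RARA, a retinoic acid receptor, fell by 0.35 in MDA-MB-231, and RARG, another, rose by 0.66 in SUM149.

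After siRelA edgeR called 3 PRC2 genes higher and 2 lower, 4 PRC1 genes higher and 3 lower, 1 Trithorax-type gene higher and 2 lower, and 1 TALE gene higher and 1 lower, against 8.82% of all genes higher and 10.2% lower. JARID2 rose by 0.88 and EPOP, a PRC2 accessory protein, fell by 1.14. Among the TALE genes MEIS2 fell by 0.73. After siRelB the calls were 1 higher and 2 lower in PRC2, 2 and 2 in PRC1, 3 and 0 in the Trithorax-type list and none among the TALE genes, against 7.45% of all genes higher and 10.8% lower. PHF19 fell by 0.54 and RYBP, a PRC1 subunit, by 1.04, while KDM6B rose by 0.54.

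Markers of other cell types were read beside the HOX results. The summed level of 7 fibroblast genes was 643 to 695 normalised counts in siEZH2 and 327 to 345 in control libraries of MDA-MB-231, with THY1 at 0 in the siEZH2 group, and 4626 to 4869 in siEZH2 against 2221 to 2351 in control libraries of SUM149, where COL1A2, LUM and PDGFRA were at 0 in the controls. The sum in SUM149 is mostly DCN, with 4626 and 4334 in siEZH2 against 2024 and 2201 in control libraries. Of the 4 fibroblast genes tested, limma called COL1A2 and PDGFRB higher in MDA-MB-231 and COL1A1, COL1A2 and DCN in SUM149. It did not call COL1A1 (-0.07) and DCN (-0.10) in MDA-MB-231 or PDGFRB (-0.02) in SUM149. COL1A2 and PDGFRB reached the limma filter through the siEZH2 libraries of MDA-MB-231 alone, so that their calls there are conditional on the filter. In SUM149 COL1A2 had 0 reads in both control libraries and 3 in each siEZH2 library, within the 3 reads that a count of 0 allows. LUM, which was not tested, had 45.3 and 52.3 normalised counts in siEZH2 and 65.4 and 70.4 in control libraries of MDA-MB-231. The 5 haematopoietic genes summed to 37.7 to 51.6 in siEZH2 against 9.48 to 15.3 in control libraries of MDA-MB-231, and to 98.5 to 118 against 22.5 to 39.3 in SUM149, with CD3E at 0 in all 4 groups. The 3 mesenchymal genes summed to 54290 to 54584 in siEZH2 against 34725 to 36441 in control libraries of MDA-MB-231, and to 85757 to 87622 against 63411 to 66103 in SUM149. These sums are mostly VIM, with 51054.8 and 51272.4 in siEZH2 against 35174.5 and 33519.2 in control libraries of MDA-MB-231. In SUM149 VIM had 85202.8 and 83480 against 62192.6 and 64843.3. The 3 endothelial genes summed to 35.3 to 38.6 in siEZH2 against 12.3 to 17.8 in control libraries of MDA-MB-231, with CDH5 at 0 in the siEZH2 group, and to 5.08 to 5.85 against 0 to 2.25 in SUM149, with CDH5 at 0 in both groups. In the first experiment the fibroblast genes summed to 68.3 to 81.5 CPM in siRelA and 46.0 to 55.1 in siRelB libraries, against 41.8 to 43.6 in control libraries, with DCN at 0 in all 3 groups. After siRelA edgeR called COL1A1 (0.93 ± 0.14) and COL1A2 (0.75 ± 0.18) higher, in the libraries in which HOXB9 was lower. The part of these genes in the HOX results was not tested.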

How the data were processed

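RNA was measured in 14 libraries, and the 30 chromatin immunoprecipitation samples of the series were not analysed here. For the siRel experiment the authors deposited raw read counts per Ensembl gene, and genome build hg19 with featureCounts 1.5.0-p3, HISAT2 2.0.5 and DESeq2 1.20.0 is listed in the submitters' processing notes. For the siEZH2 experiment the authors deposited variance-stabilised log2 values, with hg19, STAR 2.5.2b, cutadapt, DESeq2 and Salmon in the same notes. No source used here gives the transformation or strand settings. Of 58735 Ensembl identifiers, 58207 matched a symbol. Counts were tested with edgeR 4.0.16 (TMM, filterByExpr, quasi-likelihood, 3 residual degrees of freedom), and log2 values with limma 3.58.1 (trend, 4 residual degrees of freedom), each in 1 fit over the libraries of its experiment with group as the term and Benjamini-Hochberg adjustment over all genes tested. DESeq2 1.42.0 and edgeR on reads recovered from the log2 values were alternatives. Replicate numbers were not used as pairs, since deviations of same-numbered libraries correlated at most at 0.09. Values in every library are given for HOX genes called in a knockdown comparison and for the leading genes of each cluster. Gene lists and members were chosen with earlier results of these data known. The fits were tested on simulated data. Values of a few genes are not reported here. Positions are from GENCODE v44 and RefSeq on GRCh38 and were not converted from hg19.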

Additional observations from a re-analysis of the deposited data

Results flagged for a closer look

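For 3 HOX genes the limma test of the siEZH2 effect in SUM149 minus that in MDA-MB-231 passed the threshold on the variance-stabilised log2 scale, with a value of 0.55 for HOXA10, 0.41 for HOXB9 and 0.32 for HOXC11. HOXA10 and HOXC11 had 0 reads in all 4 MDA-MB-231 libraries, and HOXB9 had 1 read in 1 of the 4 SUM149 libraries. Each value restates the change in the line that has reads, and no difference in response between the lines was measured.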

How the results depend on the processing

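Of 156 alternative values of the counts of called genes and of silent or detected HOX genes, 135 stayed within 1.5 times the reported count, and of 322 alternative values of single genes 303 kept their direction and call. Without a filter on low values, limma called 5 HOX genes in MDA-MB-231 after siEZH2 and 27 between the lines. These counts stand without the share over all symbols and are no result about the HOX genes. With symbols at least 2 above the lowest value only 3 HOX genes were tested. Of these limma called 0 in MDA-MB-231, 2 in SUM149 and 3 between the lines. These counts too stand without the share over all symbols and are no result about the HOX genes. Quantile normalization gave 6 HOX genes that passed the limma test of the siEZH2 effect between the lines, which measures no difference where 1 line has no reads. Over all symbols that run called 1439 higher and 1252 lower. For the same effect edgeR on recovered reads called 0 HOX genes. Its difference for HOXB9 was -1.77, opposite in sign (edgeR, adjusted p = 0.55), on 1 read in SUM149. Between the control groups it called 25 of the 26 HOX genes tested, against 79.7% of all symbols. With at least 10 counts in 2 libraries, 9 HOX genes were detected in the siRel table, not 18. Leaving out each library in turn gave 0 to 1 HOX genes called after siRelA and 1 to 2 between siRelA and siRelB, where HOXB3 was added without the second siRelB library. It gave 1 to 2 after siEZH2 in MDA-MB-231, where without either control library HOXD1 no longer passed the filter, 3 to 5 in SUM149 and 2 to 4 for the difference between lines. Over all genes it gave 1624 to 2790 called after siRelA, 1520 to 2262 after siRelB and 1611 to 2532 for the difference between lines. For siRelA against siRelB and for siEZH2 in each line the number over all genes is not given. Those leave-out counts are no result about the HOX genes. The replicate block changed no count of HOX calls (1 after siRelA, 0 after siRelB, 2 in MDA-MB-231 and 5 in SUM149 after siEZH2). Same-numbered libraries correlated between -0.21 and 0.09, so no pairing by number was seen, although with 2 libraries per group this check cannot exclude one. Genes under about 10 reads are limited by depth.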
